A study of Mus musculus with 18 samples.

Results

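Beta-cell disallowed genes are genes that most tissues use but that mature insulin-secreting beta cells keep at low levels. The 10 genes described here, out of 53801 mouse genes counted, were taken by symbol: Slc16a1, Ldha, Hk1, Acot7, Oat, Lmo4, Aqp4, Tgm2, Zfp36l1 and Gas6. They were measured by RNA-seq in whole islets of 5-week-old mice on normal chow, in 4 groups: male wild type (WT, n = 4), male heterozygous for MafA S64F (S64F/+, n = 4), female WT (n = 5) and female S64F/+ (n = 5). MafA is a transcription factor of mature beta cells, and S64F is a single amino acid change in it. The labels give no strain and do not state how the allele was made or whether a library holds islets of 1 mouse or of several, so the p-values rest on how much these libraries differ among themselves, which may be technical. Gene-level counts also do not separate the variant from the wild-type Mafa transcript.

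A beta cell senses glucose by burning it: glycolysis speeds up as glucose rises, and pyruvate enters the mitochondria, where the ATP that triggers insulin release is made. Lactate dehydrogenase A, the lactate and pyruvate carrier MCT1 and the high-affinity hexokinase 1 would divert or bypass that route, and their genes are the classic disallowed ones. Low levels of such genes are a hallmark of mature beta cells. Other cells of the islet, such as fibroblasts, endothelial cells and macrophages, use many of them freely. In RNA from whole islets, more cells of a type and more RNA per cell cannot be told apart.

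Expression is given as CPM, a gene's count relative to its library's total, scaled between libraries by the trimmed mean of M values (TMM), with the 4 or 5 values of a group in the order of its replicate numbers. Differences are log2 fold changes with their SE from edgeR's quasi-likelihood test over 18364 genes. A gene was called where its Benjamini-Hochberg adjusted p was under 0.05. Library totals ran from 19.3 to 108.7 M counts (median 42.4 M), and the correlation across genes between replicates was 0.960 to 0.988. Mafa itself averaged 905 ± 80.8 CPM in male WT and 197 ± 52.3 in male S64F/+ islets, and 639 ± 117 in female WT and 160 ± 49.8 in female S64F/+ islets (SD). All 10 disallowed genes passed the filter on low counts.

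In male S64F/+ islets 8 of the 10 genes rose (Slc16a1, Hk1, Acot7, Oat, Lmo4, Tgm2, Zfp36l1 and Gas6), Aqp4 fell and Ldha did not pass. Of all genes tested in males, 27.6% were called, 15.4% higher and 12.3% lower. In female S64F/+ islets Oat and Lmo4 rose, Aqp4 fell and the other 7 did not pass, where 21.2% of all genes tested were called, 10.2% higher and 11.0% lower. The genotype effect itself differed between the sexes for Tgm2, Zfp36l1 and Gas6, all 3 with the higher value in males, against 4.47% of all genes (2.87% higher and 1.6% lower; 821 genes; with 1 library left out, from 253 without male WT replicate 4 to 2152 without female S64F/+ replicate 1). The libraries of WT and S64F/+ islets did not overlap for 9 of the 10 genes in males (35.1% of all genes tested, 17.8% higher and 17.3% lower) and for 3 of the 10 in females (11.6%, 5.28% higher and 6.36% lower). The members' median log2 difference was 1.31 in males, where the median over all genes was -0.03, and 0.51 in females, where it was 0.02. Both medians include Aqp4.

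**Figure D1:**
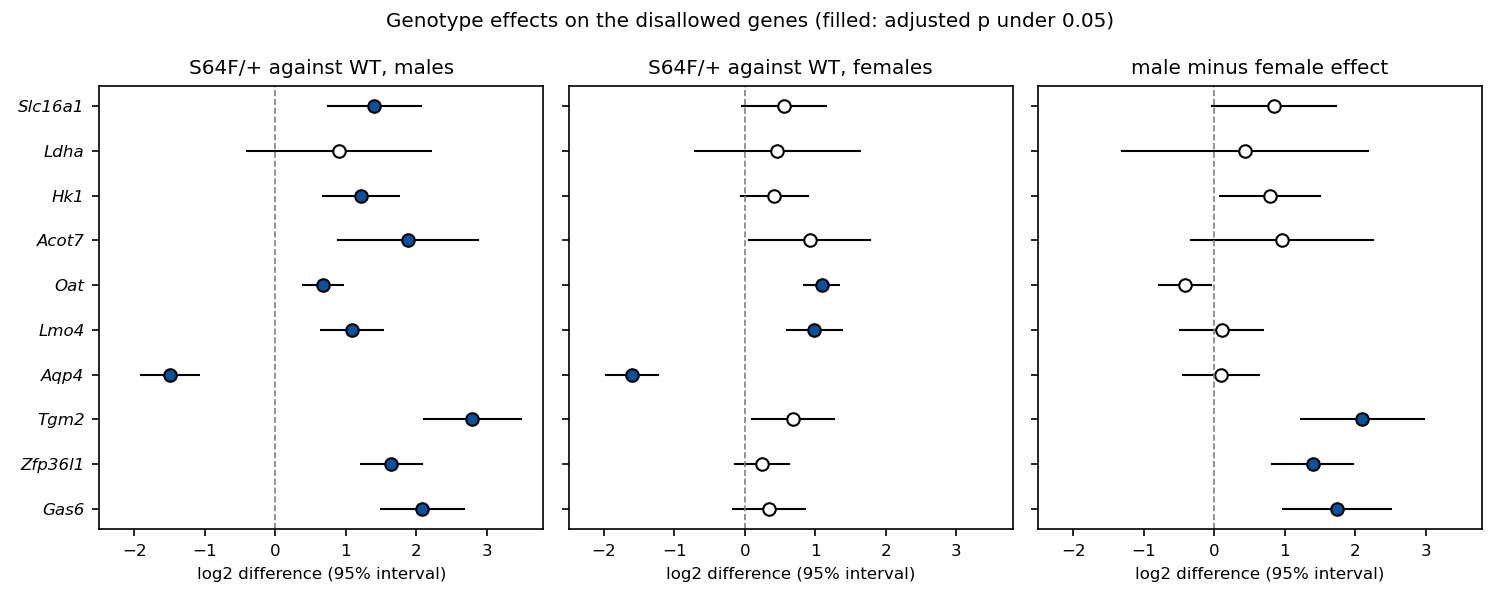
Log2 difference of each disallowed gene between S64F/+ and WT islets in males (left) and females (middle), and the male minus the female difference (right), with 95% intervals from edgeR; filled points passed an adjusted p of 0.05. Tgm2, Gas6 and Zfp36l1 lie to the right of zero in the right panel, while Oat, Lmo4 and Aqp4 pass in both sexes.

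Between genes, levels can be compared only per length, here as CPM per kilobase of merged exons, ranked among the genes tested. By this scale the members were not uniformly rare in WT islets. Slc16a1 was the lowest, at the 20.7th percentile in male and the 18.4th in female WT islets (0.366 ± 0.1004 and 0.327 ± 0.0761 CPM per kb, SD). Lmo4 came next, at the 37.5th and 36.9th, and then Hk1, at the 39.95th and 43.7th. Acot7, Tgm2 and Aqp4 followed, between the 45.4th and the 55.9th percentile. Zfp36l1 and Ldha stood between the 59.1th and the 66.1th. Gas6 was the highest, at the 74.6th and 82.7th percentile, ahead of Oat at the 72.2th and 69.04th. These ranks describe the whole islet, which also holds cells that do not keep these genes low. Several neighbours in this order overlapped: the libraries of Acot7, Tgm2 and Aqp4 in WT islets spanned shared ranges, and Ldha varied more between libraries than it differed from Zfp36l1.

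**Figure D2:**
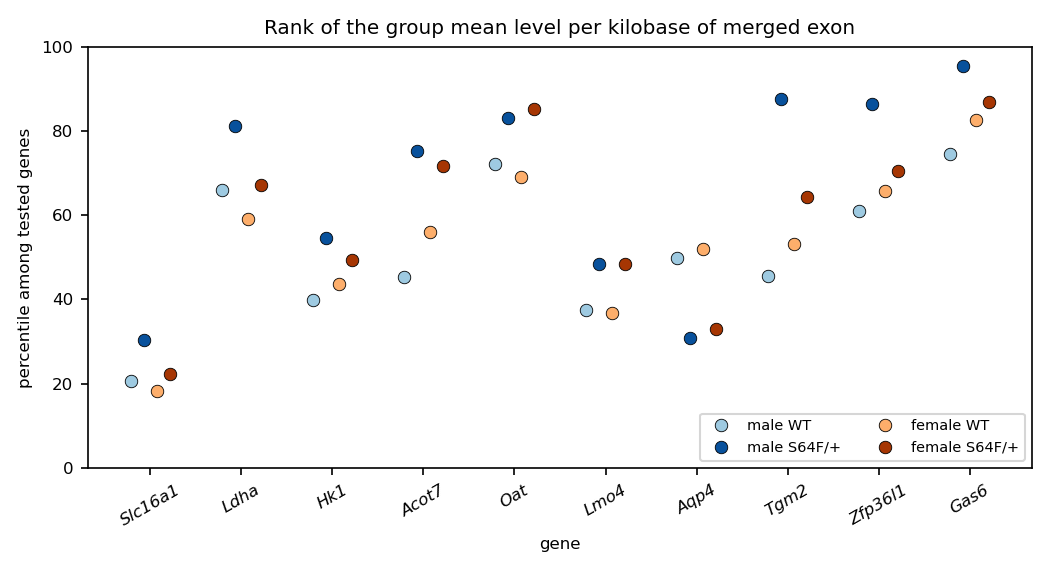
Percentile of each disallowed gene's mean CPM per kilobase of merged exons among the genes tested, with 1 point for each of the 4 groups. In male S64F/+ islets Gas6, Tgm2 and Zfp36l1 stand at the 95.6th, 87.5th and 86.4th percentile, and Slc16a1 is the lowest gene in all 4 groups.

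Slc16a1 encodes MCT1, which carries lactate and pyruvate across the plasma membrane. Its levels were 1.11, 2.19, 1.63 and 1.56 CPM in male WT and 4.14, 2.25, 6.12 and 4.82 CPM in male S64F/+ islets. In females they were 0.982, 1.77, 1.72, 1.54 and 1.23 CPM in WT and 1.33, 3.13, 2.66, 2.02 and 1.58 CPM in S64F/+ islets. All 4 male S64F/+ libraries lay above all 4 male WT libraries, the lowest of them only just, while the female groups overlapped. Slc16a1 rose in males (log2 difference 1.40 ± 0.32, edgeR adjusted p 0.00266). The female difference of 0.56 ± 0.28 did not pass (95% interval -0.03 to 1.15, adjusted p 0.171), and neither did the male minus female difference (0.85 ± 0.42, adjusted p 0.223).

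Ldha encodes the lactate dehydrogenase subunit that favours conversion of pyruvate to lactate. It was measured at 5.14, 48.99, 14.9 and 9.12 CPM in male WT and 26.4, 25.9, 75.1 and 20.6 CPM in male S64F/+ islets. Female WT islets had 9.67, 14.7, 19.3, 11.3 and 18.3 CPM and female S64F/+ islets 14.4, 28.6, 33.4, 14.00 and 11.03 CPM. Ldha had the largest SE of the members: 1 male WT library (replicate 2) stood above 3 of the 4 male S64F/+ libraries, and 1 S64F/+ library (replicate 3) stood above all others. The male difference was 0.90 ± 0.61 (95% interval -0.40 to 2.21, edgeR adjusted p 0.304) and the female one 0.46 ± 0.55 (95% interval -0.71 to 1.63, adjusted p 0.603), so neither passed. Without male WT replicate 2 the male difference was 1.91 and passed (adjusted p 0.0180). Leaving out male S64F/+ replicate 3 instead turned the male minus female difference from 0.44 to -0.17, called in neither fit (edgeR adjusted p 0.783 and 0.924).

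The promoters of these 2 lactate genes are shown because they were the members' only RefSeq promoter windows with the E-box CACGTG, which was found by letters alone. The windows hold 250 bases before and 50 bases after the annotated start on GRCm38.p6, 5′ to 3′ on the gene's strand, with the E-box in capitals. The table held 12 windows for 8 members and none for Tgm2 and Aqp4. Slc16a1 has its E-box 200 bases before the start (chr3:104638414-104638713, plus strand), and Ldha has 2, at 145 and 48 bases before it (chr7:46845554-46845853, plus strand).
Slc16a1 promoter: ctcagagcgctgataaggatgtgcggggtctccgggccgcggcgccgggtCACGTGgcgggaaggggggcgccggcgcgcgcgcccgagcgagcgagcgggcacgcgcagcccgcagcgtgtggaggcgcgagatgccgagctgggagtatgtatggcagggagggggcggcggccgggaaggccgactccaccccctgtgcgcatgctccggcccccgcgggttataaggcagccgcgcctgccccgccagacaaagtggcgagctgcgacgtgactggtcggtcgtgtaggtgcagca
Ldha promoter: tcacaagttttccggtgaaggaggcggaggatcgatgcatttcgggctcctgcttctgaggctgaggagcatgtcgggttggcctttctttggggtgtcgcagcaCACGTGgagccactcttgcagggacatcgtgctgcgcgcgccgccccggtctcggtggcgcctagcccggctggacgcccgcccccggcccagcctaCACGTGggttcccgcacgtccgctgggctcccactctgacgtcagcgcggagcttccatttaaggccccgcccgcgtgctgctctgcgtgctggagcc
Of 32851 mouse promoter windows of this length, 7.15% hold the same letters on either strand. The bases are 73.7% G or C in Slc16a1 and 67.3% in Ldha, against a median of 52.7%. The data hold no binding measurement at either site.

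Some partners of these 2 genes were called, in both directions. Of 9 tested genes for lactate and pyruvate handling, the carrier gene Slc16a7 rose and Pcx fell in males, where 27.6% of all genes were called. In females Slc16a7, the MCT1 chaperone gene Bsg and Mpc2, a subunit of the mitochondrial pyruvate carrier, rose and Pcx fell. There 21.2% of all genes were called. Pcx, pyruvate carboxylase, which feeds pyruvate carbon into the mitochondrial cycle, went from 196 ± 15.4 to 83.3 ± 5.74 CPM in males (SD; log2 difference -1.23 ± 0.12, SE) and from 227 ± 37.3 to 106 ± 14.4 CPM in females (-1.10 ± 0.11). All S64F/+ libraries lay below all WT libraries of their sex for Pcx (edgeR adjusted p 1.33e-06 in males and 1.39e-06 in females). Ldhb, the other main lactate dehydrogenase subunit gene, gave differences of 0.08 ± 0.24 in males and -0.33 ± 0.22 in females, neither called (adjusted p 0.845 and 0.300). Slc16a3, which encodes the lactate exporter MCT4, gave 1.14 ± 0.54 and 0.97 ± 0.50, also not called (adjusted p 0.131 and 0.175); without male WT replicate 2 the male Slc16a3 difference was 2.26 and passed (adjusted p 0.00258). Slc16a7, Bsg and Mpc2 were named after their values were seen. In the fit of the female groups alone Bsg and Mpc2 no longer passed (adjusted p 0.0584 and 0.0534).

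Hk1 encodes hexokinase 1, a high-affinity enzyme that phosphorylates glucose even where glucose is low. Male WT islets had 8.74, 15.7, 17.5 and 12.3 CPM and male S64F/+ islets 34.6, 36.5, 27.5 and 28.3 CPM. The values were 13.2, 21.2, 23.2, 11.8 and 19.9 CPM in female WT and 20.2, 32.5, 30.4, 19.1 and 17.6 CPM in female S64F/+ islets. The male groups stood apart and the female groups overlapped. Hk1 rose in males by 1.22 ± 0.25 (edgeR adjusted p 0.00173), a fold of 2.33 (95% interval 1.61 to 3.37). In females the difference was 0.42 ± 0.22 (95% interval -0.05 to 0.89, adjusted p 0.198), and the difference between the sexes of 0.80 ± 0.34 did not pass either (adjusted p 0.156).

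Shares within a library do not depend on the scaling between libraries. Per length of merged exon, Ldha made up 32.4% ± 18.04 (SD, n = 4) of Ldha plus Ldhb in male WT and 48.1% ± 16.9 (SD, n = 4) in male S64F/+ islets (exact two-sided permutation p 0.286), and 24.3% ± 9.80 and 33.5% ± 7.19 in females (SD, n = 5 each, exact permutation p 0.119). Slc16a1 made up 73.9% ± 14.9 and 71.9% ± 8.32 of Slc16a1 plus Slc16a3 in males and 73.8% ± 9.57 and 68.1% ± 4.51 in females (exact permutation p 0.943 and 0.254). Neither share passed in either sex after adjustment over the 6 share tests run (adjusted p 0.333 to 0.943). The smallest p that 4 against 4 libraries can give is 0.0286. A male share at that p could not pass the adjustment over 6 tests on its own, so the male outcome decides little. Among the 6 other hexokinase-step genes, Hk3, a further low-Km hexokinase, rose in males (0.373 ± 0.137 to 1.02 ± 0.133 CPM, log2 difference 1.46 ± 0.31, edgeR adjusted p 0.00153) together with Gckr. G6pc2, which encodes the islet glucose-6-phosphatase subunit, fell in females (-0.51 ± 0.13, adjusted p 0.0105). Gckr was named after its values were seen. Over all genes tested, 27.6% were called in males and 21.2% in females.

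**Figure D3:**
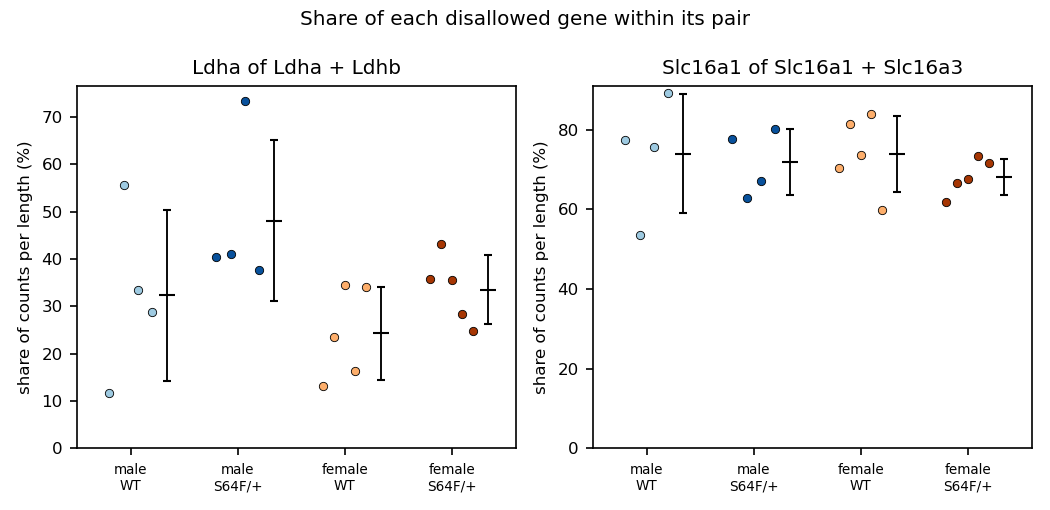
Share of Ldha in Ldha plus Ldhb and of Slc16a1 in Slc16a1 plus Slc16a3, as counts per length of merged exon (percent), with 1 point per library and the mean with its SD beside each group. The groups overlap in both panels; for Ldha, male WT libraries lie between 11.7% and 55.5% and male S64F/+ libraries between 37.7% and 73.4%.

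Acot7 encodes an acyl-CoA thioesterase, which splits fatty acyl-CoA into free fatty acid and coenzyme A. Its levels were 2.43, 7.29, 5.95 and 3.42 CPM in male WT and 16.8, 23.9, 14.4 and 16.6 CPM in male S64F/+ islets. Female WT libraries had 5.27, 9.72, 10.8, 4.64 and 10.5 CPM and female S64F/+ libraries 10.1, 23.1, 28.5, 9.92 and 6.28 CPM. Every male S64F/+ library was above every male WT library, whereas among females only S64F/+ replicates 2 and 3 exceeded all WT libraries. Acot7 rose in males (1.89 ± 0.47, edgeR adjusted p 0.00671) and did not pass in females (0.92 ± 0.40, 95% interval 0.06 to 1.78, adjusted p 0.118). The sexes' effects did not differ by the test (0.96 ± 0.61, adjusted p 0.347). Of 10 other thioesterase genes, 3 rose and 1 fell in males (Acot1, Acot9 and Acot12 higher, Acot13 lower) and 2 rose in females (Acot1 and Acot9). For comparison, 27.6% of all genes tested were called in males and 21.2% in females. Acot9, a mitochondrial thioesterase, gave 1.05 ± 0.18 in males (adjusted p 2.17e-04) and 0.53 ± 0.16 in females (0.0214). Acot1, Acot12 and Acot13 were named after their values were seen. The female call of Acot9 was lost without female WT replicate 1 (0.44, adjusted p 0.0640) or S64F/+ replicate 3 (0.47, 0.0554), that of Acot1 in 3 of 18 fits that left out 1 library (up to 0.0618), and the male call of Acot12 in 4, the difference being 0.71 without male S64F/+ replicate 3 (0.517). Acot12 did not pass without the low-count filter (0.0663) or with the replicate block (0.163) either, nor female Acot9 in the fit of the female groups alone (0.0633). Acot13 no longer passed in males with library-size scaling (-0.20, 0.144).

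Oat, Lmo4 and Aqp4 were the members that passed in both sexes. Of all genes tested, 4.23% were called higher and 5.78% lower in both. Oat encodes ornithine aminotransferase, the mitochondrial enzyme that links ornithine with glutamate and proline. Its levels were 14.3, 18.3, 20.7 and 18.96 CPM in male WT and 28.2, 28.7, 28.8 and 29.9 CPM in male S64F/+ islets. In females they were 14.6, 16.6, 19.1, 14.6 and 14.3 CPM in WT and 24.2, 36.5, 38.7, 34.8 and 34.5 CPM in S64F/+ islets. The groups stood apart in both sexes, and the male S64F/+ libraries were tightly grouped. Oat rose by 0.68 ± 0.13 in males (edgeR adjusted p 9.20e-04) and by 1.09 ± 0.12 in females (adjusted p 3.76e-06). The difference between the sexes was -0.42 ± 0.18 (adjusted p 0.159). It passed without female S64F/+ replicate 1, the lowest library of its group (-0.52, adjusted p 0.0325).

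Among the 11 other ornithine and proline genes, Arg1 and Prodh rose in males, and Arg1 and Pycrl rose in females. Over all genes tested, 15.4% were called higher in males and 10.2% in females. Arg1, arginase 1, which makes ornithine from arginine, went from 38.4 ± 8.95 to 53.2 ± 1.36 CPM in males (SD; log2 difference 0.47 ± 0.15, edgeR adjusted p 0.0249) and from 34.4 ± 6.15 to 58.8 ± 7.04 CPM in females (0.77 ± 0.13, adjusted p 4.58e-04). Prodh and Pycrl were named after their values were seen. In males the call of Arg1 was lost in 5 of 18 fits that left out 1 library (adjusted p up to 0.0789, without male WT replicate 2, where the difference was 0.33) and that of Prodh in 5 (up to 0.103, without male WT replicate 1). In females Pycrl lost its call in 7 (up to 0.0891, without S64F/+ replicate 3). Prodh also did not pass without the low-count filter (0.0612), with the replicate block (0.0626) or in the fit of the male groups alone (0.0516), nor Pycrl in that of the female groups alone (0.0679).

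Lmo4 encodes a LIM-only protein, which bridges transcription factors and their cofactors without binding DNA itself. Male WT islets had 4.31, 3.68, 6.02 and 4.90 CPM and male S64F/+ islets 13.4, 9.11, 8.39 and 9.41 CPM. Female WT islets had 4.17, 4.93, 5.78, 4.29 and 4.58 CPM and female S64F/+ islets 7.34, 10.2, 13.9, 7.92 and 7.79 CPM. Both pairs of groups were apart. The rise was 1.09 ± 0.21 in males (edgeR adjusted p 7.38e-04) and 0.99 ± 0.19 in females (adjusted p 9.45e-04), with a difference between the sexes of 0.10 ± 0.28 (95% interval -0.48 to 0.69, adjusted p 0.854).

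Lmo4 was also the only member with the short MAF motif TGCTGAC in a promoter window, and that window is shown for this reason. It lies 22 bases after the start of 1 of the gene's 3 listed starts (chr3:144202283-144202582, minus strand), in the reverse orientation GTCAGCA, in capitals.
Lmo4 promoter: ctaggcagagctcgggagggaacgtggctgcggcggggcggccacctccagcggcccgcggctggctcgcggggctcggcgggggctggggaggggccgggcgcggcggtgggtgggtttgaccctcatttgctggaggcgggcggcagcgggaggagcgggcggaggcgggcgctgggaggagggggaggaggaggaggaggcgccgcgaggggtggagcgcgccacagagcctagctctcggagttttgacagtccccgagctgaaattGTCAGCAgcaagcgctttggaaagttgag
This motif is in 4.67% of all windows, and the full MAF recognition element, in 0.0122% of them, is in none of the members' windows. No MafA binding was measured in these data.

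Among 10 LIM-domain partner genes, Lmo3 and Ldb2 rose and Ldb1, Ssbp3 and Ssbp4 fell in males. Females had Lmo3 higher and Ldb1, Lhx1, Ssbp3 and Ssbp4 lower. The share called over all genes tested was 27.6% in males and 21.2% in females. Lmo3, a close relative of Lmo4, gave 0.76 ± 0.23 in males (edgeR adjusted p 0.0199) and 0.79 ± 0.20 in females (0.00904). Ldb1 encodes the partner that binds LIM domains of LMO and LIM-homeodomain proteins. Ldb1, Lhx1, Ssbp3 and Ssbp4 were named after their values were seen. Their called differences ran from -0.20 to -0.48. Of the 18 fits that left out 1 library, Ldb1 lost its call in 7 in males and 1 in females, Ssbp3 in 7 in males, Ssbp4 in 4 in males and 7 in females, and Lhx1 in 7 in females. With library-size scaling Ldb1, Ssbp3 and Ssbp4 did not pass in males (adjusted p 0.704 to 0.947), where Ssbp3 turned to 0.02, nor did Ldb1, Ssbp4 and Lhx1 in females (0.0507 to 0.0570). Without the low-count filter none of these calls passed in males (0.0781 to 0.137) or females (0.0636 to 0.138). In the fit of the female groups alone Ssbp3 (0.0596), Ldb1 (0.0688) and Ssbp4 (0.125) did not pass, and with the replicate block Lhx1 did not (0.0696). The male call of Lmo3 was lost in 4 of the 18 fits (up to 0.0602, without male WT replicate 4) and without the low-count filter (0.0505), and that of Ldb2 without male S64F/+ replicate 1 (0.87, 0.0638).

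Aqp4, the gene of a water channel best known from astrocytes, was the one member that fell. It was read at 19.5, 20.6, 14.8 and 16.2 CPM in male WT and 6.26, 6.52, 7.12 and 5.21 CPM in male S64F/+ islets. Female WT islets had 25.98, 17.7, 13.5, 18.3 and 24.1 CPM and female S64F/+ islets 8.85, 6.17, 7.02, 4.98 and 5.88 CPM. Every S64F/+ library of either sex lay below every WT library of that sex. The decrease was -1.50 ± 0.20 in males (edgeR adjusted p 2.12e-05) and -1.60 ± 0.18 in females (adjusted p 3.85e-06), with a sex difference of 0.10 ± 0.26 (adjusted p 0.849). That is 2.83-fold lower in males (95% interval 2.13 to 3.76) and 3.03-fold lower in females (2.35 to 3.91). Aqp11, an intracellular channel, also fell in both sexes (-0.78 ± 0.14 and -0.67 ± 0.12, edgeR adjusted p 4.18e-04 and 8.37e-04), as did Aqp7. Of 7 tested relatives Aqp5 rose in males. The share of all genes called was 27.6% in males and 21.2% in females. Aqp5 and Aqp7 were named after their values were seen. The female call of Aqp7 was lost in 6 of 18 fits that left out 1 library (adjusted p up to 0.101, without S64F/+ replicate 4), with library-size scaling (0.0510) and without the low-count filter (0.0657).

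Tgm2, Zfp36l1 and Gas6 showed the difference between the sexes. Tgm2 encodes transglutaminase 2, which crosslinks proteins in and outside cells. Its levels were 8.51, 10.7, 12.4 and 10.4 CPM in male WT and 102, 64.02, 60.7 and 65.2 CPM in male S64F/+ islets. Female WT libraries had 11.2, 21.5, 23.1, 9.61 and 11.9 CPM and female S64F/+ libraries 22.4, 27.6, 34.9, 26.6 and 13.03 CPM. The male S64F/+ libraries stood far above the 3 other groups, and the female groups overlapped. Tgm2 rose in males by 2.79 ± 0.32 (edgeR adjusted p 1.38e-05), a fold of 6.92 (95% interval 4.29 to 11.1). The female difference was 0.69 ± 0.27 (adjusted p 0.0866), and the male minus female effect was 2.10 ± 0.41 (95% interval 1.23 to 2.98, adjusted p 0.0152). The female difference passed with DESeq2 (0.69, adjusted p 0.0283), in the fit with the replicate block (0.71, 0.0352), without female WT replicate 3 (0.87, 0.0379) and without female S64F/+ replicate 5 (0.85, 0.0257). Of the 3 other transglutaminase genes tested, Tgm5 was lower in both sexes (-2.10 ± 0.46 and -2.46 ± 0.41, edgeR adjusted p 0.00217 and 3.34e-04), at levels of 0.0441 to 1.61 CPM. Over all genes tested, 5.78% were called lower in both. F13a1, named after its values were seen, was also called lower in females, where 11.0% of all genes tested were called lower.

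Zfp36l1 encodes a protein that binds AU-rich elements and promotes mRNA decay. Male WT islets had 11.3, 14.9, 16.8 and 13.5 CPM and male S64F/+ islets 56.6, 29.7, 46.5 and 44.4 CPM. The values were 15.02, 20.7, 19.4, 14.5 and 18.5 CPM in female WT and 19.9, 23.4, 29.3, 16.8 and 15.4 CPM in female S64F/+ islets. The male groups were apart and the female groups overlapped. The rise in males was 1.65 ± 0.21 (edgeR adjusted p 1.79e-05), the female difference 0.25 ± 0.18 (95% interval -0.13 to 0.63, adjusted p 0.365), and the effect differed between the sexes by 1.40 ± 0.27 (adjusted p 0.0128). Its relative Zfp36l2, chosen here after its values were seen, also had a larger effect in males (difference 0.63 ± 0.17, adjusted p 0.0470), though neither sex passed alone (0.32 ± 0.13 in males, -0.31 ± 0.12 in females; adjusted p 0.0775 and 0.0623). The call of the difference was lost in 14 of 18 fits that left out 1 library (adjusted p up to 0.105, without male WT replicate 4) and without the low-count filter (0.0671). Zfp36l2 passed in males with library-size scaling (0.53, 0.0224) and in females in the fit of the female groups alone (-0.31, 0.0372).

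Gas6 encodes a secreted vitamin K-dependent ligand of the receptors Tyro3, Axl and Mertk. Its levels were 16.3, 24.7, 22.6 and 23.4 CPM in male WT and 154, 76.3, 74.95 and 65.4 CPM in male S64F/+ islets. In females they were 24.6, 38.96, 43.9, 26.3 and 25.8 CPM in WT and 34.8, 47.1, 51.3, 40.6 and 28.4 CPM in S64F/+ islets. Male S64F/+ islets stood above the 3 other groups, and the female groups overlapped. Gas6 rose in males by 2.09 ± 0.28 (edgeR adjusted p 5.10e-05); the female difference was 0.34 ± 0.24 (95% interval -0.17 to 0.85, adjusted p 0.343), and the sexes differed by 1.74 ± 0.36 (adjusted p 0.0180).

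The female groups can also be read by same-numbered libraries, which deviated together over all genes. This pairing is not in the labels and is uncertain: WT replicates 3 and 4 each correlated most with a differently numbered S64F/+ library. In all 5 such pairs the S64F/+ library was the higher one for Gas6, Tgm2, Slc16a1, Oat and Lmo4, and in 4 of 5 for Zfp36l1, Hk1, Acot7 and Ldha. Aqp4 was lower in all 5. For Oat, Lmo4 and Aqp4 the female groups stood apart, so any pairing gives this count. How many of all genes show such counts was not determined, so these counts decide nothing about the members. With the replicate number as a block, the female differences of Gas6 and Slc16a1 did not pass (0.35 and 0.53, edgeR adjusted p 0.272 and 0.160), while that of Tgm2 did.

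Genes of the Gas6 receptors rose in males as well. Of the 6 partner genes, Axl, Mertk, Tyro3 and Pros1 rose in males, and Ggcx fell in females. For comparison, 15.4% of all genes tested were called higher in males and 11.0% lower in females. Axl went from 17.7 ± 2.33 to 37.7 ± 4.26 CPM in males (SD; log2 difference 1.09 ± 0.15, edgeR adjusted p 4.01e-05). In females the Axl difference was 0.15 ± 0.13 (adjusted p 0.478), and its male minus female difference of 0.94 ± 0.20 passed (adjusted p 0.0176). Mertk, Tyro3 and Pros1, the gene of the related ligand protein S, gave 1.22 ± 0.28, 1.44 ± 0.35 and 1.43 ± 0.25 in males (adjusted p 0.00311, 0.00442 and 3.83e-04), and these 3 were named after their values were seen. The male minus female differences of Mertk, Tyro3 and Pros1 did not pass (edgeR adjusted p 0.0830, 0.157 and 0.0766). Ggcx, the vitamin K-dependent carboxylase gene, gave -0.38 ± 0.09 in females (adjusted p 0.00722). In males Ggcx gave -0.26 ± 0.10 and did not pass (edgeR adjusted p 0.0706), though all 4 S64F/+ libraries lay below all WT libraries. Its male minus female difference did not pass either (0.12 ± 0.14, edgeR adjusted p 0.635).

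**Figure D4:**
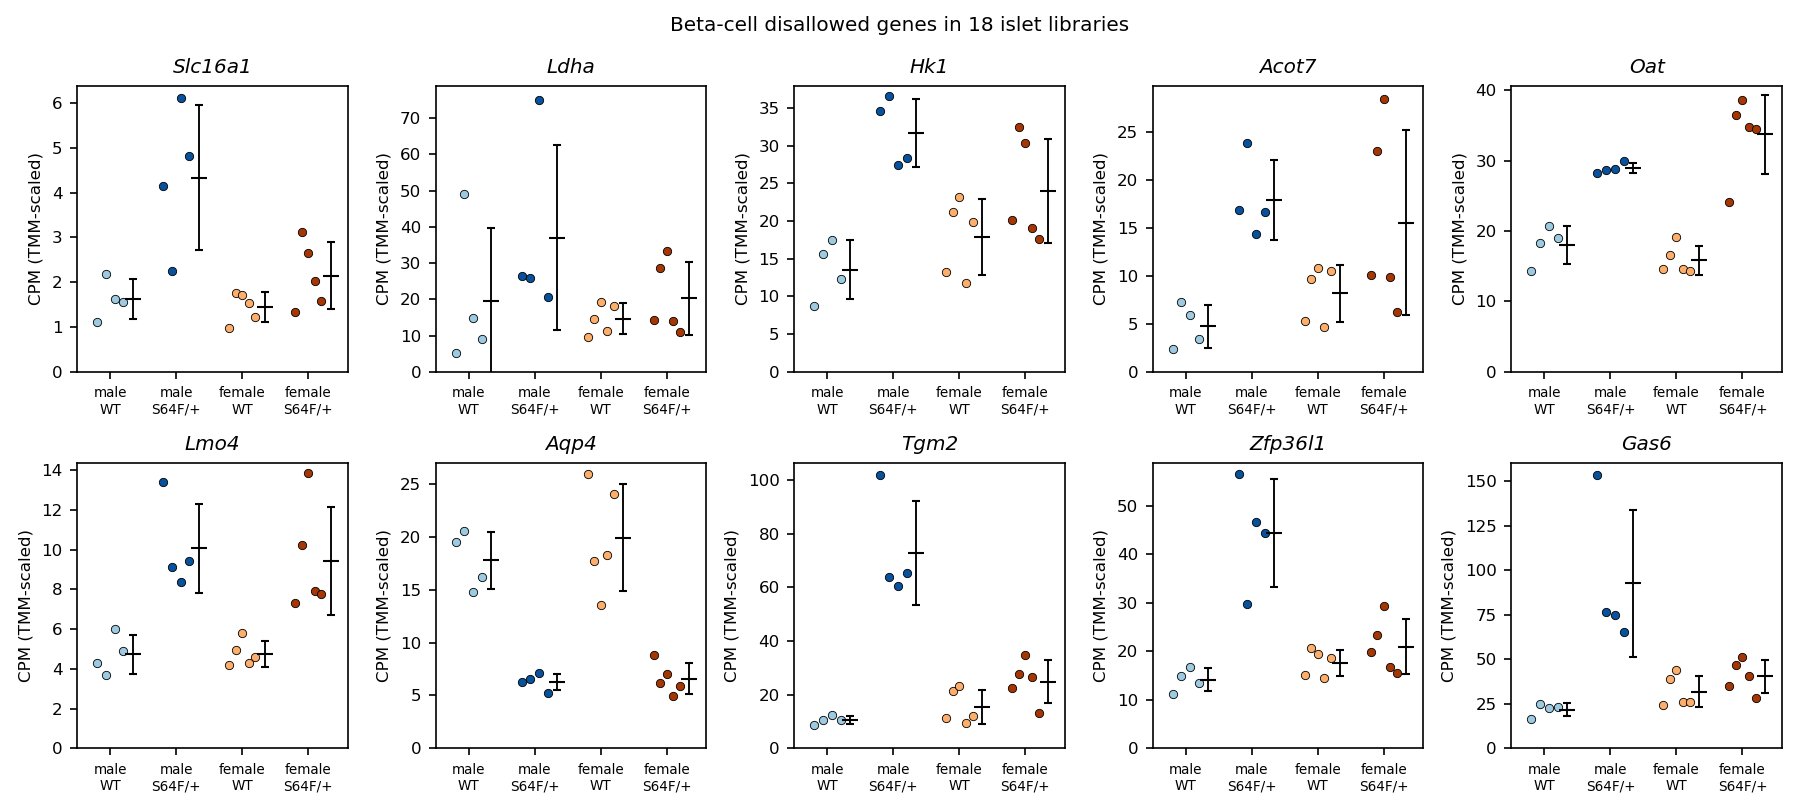
CPM of each disallowed gene in the 18 libraries (vertical axis, TMM-scaled, starting at 0), with 1 point per library in the order of replicate numbers and the mean with its SD beside each group (an SD below 0 is cut at the axis). Tgm2, Gas6 and Zfp36l1 show high male S64F/+ points and overlapping female groups, and Aqp4 is low in both S64F/+ groups.

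Between the sexes in WT islets few genes were called at all. Among the 10 members none was called, against 2.36% of all genes (1.73% higher and 0.637% lower in males), so 0 is near that share. None had an unadjusted edgeR p under 0.05, and DESeq2 also called none. This does not show equal levels. In males 7 members had the lower estimate and 3 the higher, with intervals such as -1.18 to 0.08 for Tgm2 and -1.10 to 0.01 for Gas6 (95%). In S64F/+ islets 4 were called, all higher in males, against 16.1% of all genes (8.0% higher and 8.12% lower in males). They were Tgm2 (log2 difference 1.56 ± 0.29, adjusted p 0.00341), Gas6 (1.20 ± 0.25, 0.00702), Zfp36l1 (1.09 ± 0.19, 0.00204) and Slc16a1 (1.03 ± 0.29, 0.0239), all from edgeR. The Slc16a1 call was lost in the fit of the compared groups only (adjusted p 0.0553) and without male S64F/+ replicate 3 (0.0929) or 4 (0.0598) or female S64F/+ replicate 4 (0.0531) or 5 (0.0608). Oat passed without female S64F/+ replicate 1 (-0.32, adjusted p 0.0352).

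Markers of islet and other pancreatic cell types were read in the same libraries. Over all genes tested, 15.4% were called higher and 12.3% lower in males, and 10.2% and 11.0% in females. In males 13 of 14 markers of stellate cells and fibroblasts rose, with a summed level of 263 to 611 CPM in WT and 1863 to 2658 CPM in S64F/+ islets. In females 1 of 14 rose, and the sums overlapped (363 to 953 CPM in WT, 332 to 1181 CPM in S64F/+ islets). Endothelial markers rose in males for 11 of 14 (558 to 772 CPM in WT, 1054 to 1293 CPM in S64F/+ islets) and for none of 14 in females. Of 14 macrophage markers 8 rose and 1 fell in males, and 7 rose in females. Alpha-cell markers rose in females for 9 of 12 (34709 to 42902 CPM in WT, 60266 to 83470 CPM in S64F/+ islets), with 2 lower. In males 2 of the 12 rose and 2 fell, and the alpha-cell sums overlapped (34974 to 44033 CPM in WT, 36379 to 60757 CPM in S64F/+ islets). Beta-cell markers, Mafa among them, fell in males for 11 of 12 (212988 to 290565 CPM in WT, 127104 to 141294 CPM in S64F/+ islets). In females 10 of 12 fell, but the beta-cell sums overlapped (168018 to 308846 CPM in WT, 132766 to 244951 CPM in S64F/+ islets). The median sum was 184820 CPM in female WT and 204021 CPM in female S64F/+ islets. Ductal markers rose for 8 of 12 in males and 5 of 12 in females. Of 8 delta-cell markers 5 rose and 1 fell in males and 4 rose in females, of 4 PP-cell markers 0 and 3 rose, and of 10 Schwann-cell markers 4 and 1. Of 5 tested lymphocyte markers 3 rose and 1 fell in males, 1 rose and 1 fell in females, at summed levels of 2.32 to 11.1 CPM, and of 11 acinar markers none passed. No marker of these lists was at 0 in every library of a group. Within the female groups, the libraries with the highest stellate sums (953 and 828 CPM in WT replicates 2 and 3, 1076 and 1181 CPM in S64F/+ replicates 2 and 3) also held the highest level of most of the 9 members other than Aqp4: replicate 3 held it for 7 in WT and 7 in S64F/+ islets. Male WT replicate 1, which had the lowest stellate sum at 263 CPM, was the lowest of its group for 8 of the 9, and female S64F/+ replicate 5 (332 CPM, the lowest sum of its group) for 6. Other libraries did not follow this order: male S64F/+ replicate 3, with the second highest sum of its group (2560 CPM), was the lowest for 4 of the 9, and female WT replicate 5, with the lowest sum (363 CPM), for 1. The part of these cells in the members' differences was not tested.

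**Figure D5:**
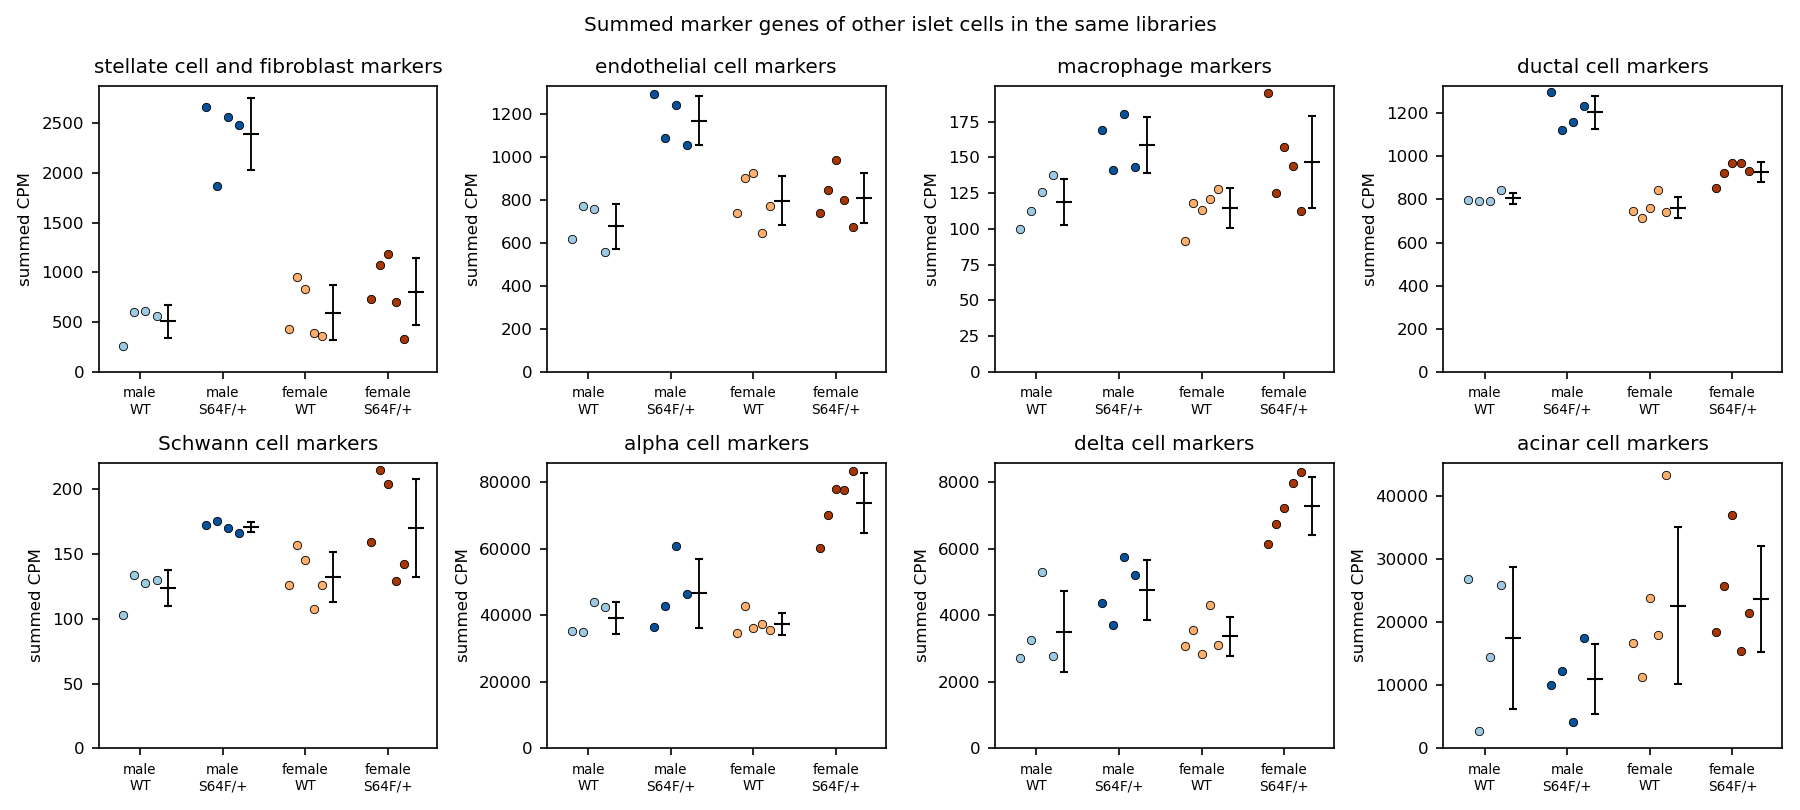
Summed CPM of marker genes of 8 other cell types in each of the 18 libraries, with 1 point per library in the order of replicate numbers and the mean with its SD. The stellate and fibroblast sum is 1863 to 2658 CPM in male S64F/+ islets against 263 to 611 CPM in male WT, and the alpha-cell sum is highest in female S64F/+ islets.

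A wider list of 19 genes kept low in beta cells, 18 of them tested, mostly rose in males. There 16 rose and 0 fell (median log2 difference 1.52), where 15.4% of all genes tested were called higher and 12.3% lower. The other 2, Hk2 and Maf, named for this reason, did not pass. In females 2 rose, Cldn11 and Igf1 (median 0.41). That count is near the share over all genes, of which 10.2% were called higher in females. With DESeq2 or without female S64F/+ replicate 5 the count was 5, and without female S64F/+ replicate 1 it was 4. Igf1, insulin-like growth factor 1, and Hsd11b1, the enzyme that reactivates glucocorticoids, were the list's calls for the male minus female effect (1.72 ± 0.36 and 3.16 ± 0.58, edgeR adjusted p 0.0172 and 0.00942). For that effect 4.47% of all genes were called. Hsd11b1 averaged 0.639 ± 0.273 CPM in male WT and 7.51 ± 1.25 CPM in male S64F/+ islets (SD; log2 difference 3.53 ± 0.45, adjusted p 1.67e-05). Mgst1, a microsomal glutathione transferase gene, gave 2.10 ± 0.34 (adjusted p 1.62e-04), and Yap1, a co-activator of Hippo signalling, gave 1.37 ± 0.26 (adjusted p 6.01e-04) in males, while in females neither passed (0.74 ± 0.29 and 0.29 ± 0.22; adjusted p 0.0760 and 0.396). DESeq2 called Mgst1 in females (adjusted p 0.0380), as did edgeR without male WT replicate 1 (0.0431) or female S64F/+ replicate 1 (0.0419). Cldn11, a tight-junction protein gene, gave 0.69 ± 0.22 in males (adjusted p 0.0232) and 0.94 ± 0.19 in females (0.00190), and the male call did not hold in 4 of 18 fits with a library left out (the highest adjusted p was 0.0803, when male WT replicate 3 was missing). Several genes of this list, among them Pdgfra and Cxcl12 (chosen as examples after their values were seen), are also expressed by stellate cells and fibroblasts. Markers of these cells rose in the same male libraries, and their part in this list's differences was not tested.

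For the members, the genes of nearest profile (2 each, 1 for Aqp4) over the 18 libraries were found among 13316 genes, as the root mean square difference of log2 CPM after centring each gene on its mean. Hk1 was closest to Ndrg4 (0.15) and Rab15 (0.17), Acot7 to Nat8l (0.22) and Parm1 (0.27), and Oat to Slc25a33 (0.17) and Cd81 (0.19). Tgm2 was closest to Olfml3 and Adgrg6 (both 0.27), Gas6 to Timp2 and Pdgfd (both 0.22), Zfp36l1 to Pi16 (0.16) and Lrrk1 (0.18), and Slc16a1 to Cd248 (0.28) and Fkbp10 (0.29). Lmo4 was closest to Fam107b (0.21) and S100a16 (0.22), Aqp4 to Mnx1 (0.22), and Ldha to Acss1 (0.35) and Mocos (0.36). The members' own root mean squares about their means ran from 0.50 for Oat to 1.08 for Tgm2. These likenesses describe the libraries, which share genotype, sex and cell makeup.

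Some members share bases with other genes, and the strand setting of the counting is not given in the sources used here. Merged exons of Zfp36l1 (chr12:80107754-80113013, minus strand) overlapped those of Gm26669 over 55.9% of their length, and those of Tgm2 (chr2:158116402-158146436, minus strand) overlapped Rprd1b and Gm20412 over 21.8%. The overlap was 1.84% for Hk1 with Hk1os and 1.33% for Gas6 with Tmem255b, and 0% for the other 6. Reads in the shared bases cannot be told apart. All coordinates are those of GENCODE M21 on GRCm38.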

How the data were processed

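RNA-seq of whole islets gave 18 libraries, 4 or 5 for each of 4 groups of sex and MafA genotype. RNA had an integrity number above 8, and paired-end reads of 150 nucleotides were used, per the labels' protocols. The deposited tables hold raw counts per gene, made by the authors on GRCm38. STAR, featureCounts, FastQC, MultiQC and DESeq2 are named without versions per the submitters' processing notes. For the annotation, the strand setting and multi-mapping reads, the choices were not given in the sources used here. FPKM values were deposited by the authors too. For each of 33562 genes with a count they could be rebuilt from the count, its library total and a single gene length (a whole number of bases within 0.001 base). That length equalled the summed length of all transcripts in GENCODE M21 for 94.5% of 33491 genes, so it inflates the length of genes with many transcripts. It equalled the merged exon length for 46.3%. Levels were therefore compared between genes, and shares formed, per length of merged GENCODE M21 exons, and not by FPKM as first planned. The shares were also computed with the length behind the deposited FPKM, an alternative chosen after seeing the data.

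The tables list 99 spike-in features with 0 counts, which were left out. Counts were analysed with edgeR 4.0.16 in R 4.3.3: filterByExpr (minimum count 10, minimum total 15) left 18364 genes, libraries were scaled by TMM, and a robust quasi-likelihood model took all 18 libraries with 1 coefficient for each group (biological coefficient of variation 24.4%). Tests were two-sided with Benjamini-Hochberg adjustment over all genes tested. The script was tested on simulated data. Within-library shares were compared by exact permutation, adjusted over the 6 share tests run. Total counts were 19.3 to 108.7 M per library; the lowest count of a member was 20, for Slc16a1 in 1 library.

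The sample titles gave the groups and the replicate numbers. Same-numbered WT and S64F/+ libraries deviated together at correlations of 0.110 to 0.418 in all 5 female pairs, which was taken as pairing, from the data and not the labels. This pairing is uncertain: female WT replicates 3 and 4 each correlated most with a differently numbered S64F/+ library. In males the correlations were -0.249 to 0.189, so the numbers were not taken as pairs. The lowest chi-square per degree of freedom between replicates was 21.7, so none was a repeat of another.

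The members and all lists, markers and the naming rule were chosen with earlier results of these data known. Named were all members, and of each list of relatives the called gene with the smallest p in each genotype comparison. Of the wider disallowed list the 4 called genes with the smallest p were named, and Ldhb and Slc16a3 always. Some results that fall under these rules are not reported here. Genes named after their values were seen are marked as such in the text. The symbol Lrrc16a of that list was not found. Alternatives were DESeq2 1.42.0, library-size scaling, no low-count filter, the compared groups alone, a replicate block and leaving out each library. Promoter windows came from RefSeq (GRCm38.p6).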

Additional observations from a re-analysis of the deposited data

Results flagged for a closer look

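In 40 groups of libraries (10 genes in 4 groups), 4 had 1 library far from the others of its group, where chance gives about 1 in 20. Ldha reached 75.1 CPM in male S64F/+ replicate 3, against 20.6 to 26.4 CPM in the other 3 libraries. Tgm2 reached 101.9 CPM in male S64F/+ replicate 1, against 60.7 to 65.2 CPM. Gas6 reached 153.7 CPM in the same library, against 65.4 to 76.3 CPM. Oat was lowest in female S64F/+ replicate 1 at 24.2 CPM, against 34.5 to 38.7 CPM. The other 3 male S64F/+ libraries were still above every male WT library for Tgm2 and Gas6.

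For 3 members the genotype effect differed between males and females in the interaction test of edgeR: Tgm2 by 2.10 on the log2 scale (adjusted p 0.0152), Gas6 by 1.74 (adjusted p 0.0180) and Zfp36l1 by 1.40 (adjusted p 0.0128). All 3 effects were larger in males, with 4 of 4 male S64F/+ libraries above all male WT libraries.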

How the results depend on the processing

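Members kept their call in all 50 tests with library-size scaling and without the low-count filter, in 49 of 50 with DESeq2 and in 891 of 900 that left out 1 library; the exceptions are given beside the results. Over all alternatives the sign turned in 17 fits of a member, all of Lmo4, Aqp4 or Ldha in comparisons where the difference was called in neither fit; 1 was Aqp4 between S64F/+ sexes with library-size scaling (-0.07 to 0.11). The replicate block left 29 of 30 calls as they were (9 members called in males, 4 in females); the other, Tgm2 in females, passed at 0.71 (edgeR adjusted p 0.0352). Leaving out 1 library gave 9 to 10 members called in males, 3 to 4 in females, 3 to 4 for the male minus female effect, none between WT sexes and 3 to 5 between S64F/+ sexes. The wider list gave 12 to 17, 2 to 5, 2 to 4, none and 1 to 8, and all genes 3956 to 5545, 2935 to 4988, 253 to 2152, 71 to 643 and 1651 to 4298. With DESeq2 the wider list had 5 calls in females, 5 for the male minus female effect, 1 between WT sexes and 9 between S64F/+ sexes. All genes then had 1912 for the male minus female effect and 1067 between WT sexes. Library-size scaling gave 4 and 10 of the wider list for the male minus female effect and between S64F/+ sexes, and 112 genes between WT sexes. It moved the median of all genes by 0.22 in males, 0.24 for the male minus female effect and 0.18 between S64F/+ sexes. The share of higher calls went from 55.6% to 86.5%, from 64.2% to 97.2% and from 49.6% to 88.1%. Ssbp3 in males turned from -0.20 to 0.0217. Relative to that median Tgm2 gave 2.82 and Aqp4 -1.48 in males. Without the low-count filter the wider list had 3 calls between S64F/+ sexes, and all genes 481 for the male minus female effect, 252 between WT sexes and 1969 between S64F/+ sexes. The compared groups alone gave 2587 in females and 226 between WT sexes. The cause was not tested.

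Without 1 library the share difference ranged from 7.29 to 23.5 percentage points for Ldha in males and 6.44 to 11.8 in females, from -8.86 to 3.02 for Slc16a1 in males, where it turned positive without male WT replicate 4 (3.02) or male S64F/+ replicate 2 (0.981), and from -9.21 to -3.19 in females. The lowest count of a member was 20, for Slc16a1 in male WT replicate 1, and groups of 4 or 5 libraries limit every comparison.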

Other observations

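The length used for a gene changes the order of the members. For Ldha the length behind the deposited FPKM is 4.36 times its merged exon length, for Acot7 3.09 times and for Hk1 3.04 times, while it is 1.00 times for Slc16a1 and Gas6. Ldha in male WT islets stood at the 66.1th percentile of tested genes per merged exon and at the 47.3th by the deposited FPKM. Its share of Ldha plus Ldhb there was 32.4% ± 18.04 with merged exons, 20.2% ± 13.3 with the FPKM length and 47.9% ± 20.8 from counts without a length (SD, n = 4). A change between groups within 1 gene does not depend on this length.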
